A study of Mus musculus with 6 samples.

Results

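The genes described here encode the machinery that imports proteins into mitochondria, taken as every protein-coding gene of the count table whose symbol begins with Timm or Tomm. They number 26 of the 54929 rows of the table, 22046 of which are protein-coding. RNA was measured by mRNA sequencing of left ventricle from wild-type C57BL/6 mice whose aorta had been narrowed surgically (transverse aortic constriction, TAC), so that every animal had a pressure-overloaded heart. The control group of 3 libraries received an anti-IgG antibody and the treated group of 3 an anti-PD-1 antibody, which blocks an inhibitory receptor of T cells. Each antibody was given intraperitoneally at 10 mg/kg every 3 days from day 14, and the time label of all 6 samples is 5 weeks. There was no group without TAC. Nothing in the labels ties each library to its own animal, and no sequencing batch is named. All p-values therefore reflect the spread among these 6 libraries alone, which may be technical.

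Nearly all mitochondrial proteins are encoded in the nucleus, made in the cytosol and carried through the mitochondrial membranes. The TOM complex of the outer membrane is the common entry gate: receptors bind the precursor, a beta-barrel channel passes it inward, and small membrane-anchored subunits hold the complex together. From there the TIM23 complex moves proteins with a cleavable presequence into the matrix or inner membrane, while hexamers of small Tim chaperones escort hydrophobic carriers across the intermembrane space to the TIM22 complex. The heart depends heavily on this route, since cardiomyocytes are among the cells richest in mitochondria.

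With anti-PD-1, 10 import genes fell, 2 rose and 11 did not pass among the 23 that had enough reads to be tested (adjusted p under 0.05 in the quasi-likelihood test of edgeR, with Benjamini and Hochberg's adjustment over all tested genes). Tomm7, Tomm5, Tomm22 and Tomm40 of the outer membrane gate fell, and so did the small Tim chaperone genes Timm13, Timm8b, Timm10, Timm10b and Timm9. Of the inner membrane translocases 1 gene fell, the TIM22 channel gene Timm22. The genes that rose were Tomm70a, an outer membrane receptor, and Timm29, a TIM22 subunit. For comparison, 21.1% of the 14807 tested genes changed, 10.8% falling and 10.3% rising. Values of the 2 groups stood fully apart in 16 of the 23 tested members, against 41.0% of all tested genes. The log2 fold change, taken as anti-PD-1 against anti-IgG, had a median of -0.50 over the members and of -0.03 over all tested genes. Members with a negative value numbered 19 of 23, against 51.9% of all tested genes. Because whole ventricle was sequenced, fewer cells of a type and less RNA per cell cannot be told apart.

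**Figure D1:**
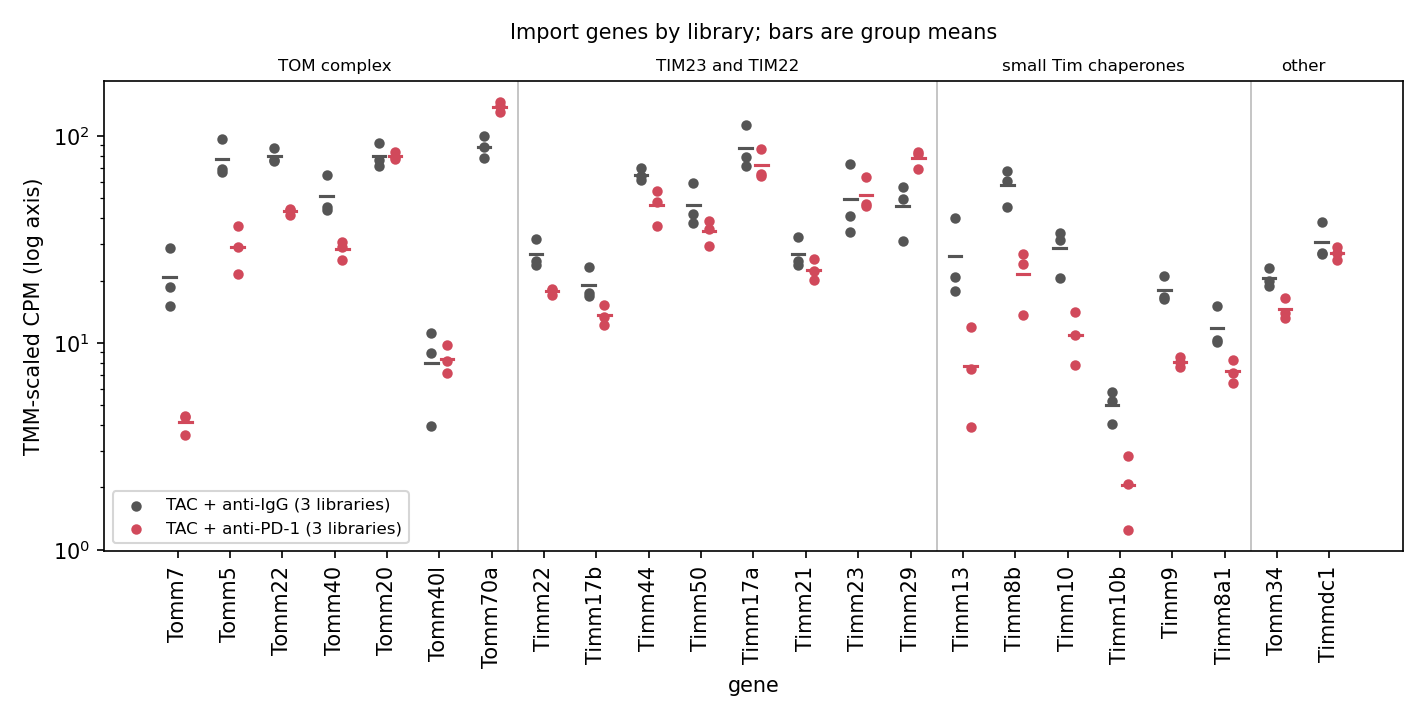
TMM-scaled CPM (log axis) of the 23 tested import genes in each of the 3 anti-IgG (grey) and 3 anti-PD-1 (red) libraries, grouped by complex; short bars are group means. The groups stand apart in Tomm7, from 15.1 to 28.7 CPM against 3.59 to 4.42 CPM, and mix in Tomm20 and Timm23.

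The DNA ahead of the import genes is shown for 6 of them because import genes are known targets of factors that control mitochondrial biogenesis, among them NRF1 and the ETS protein GABP. The 250 bases upstream of the RefSeq start (GRCm38.p6) were found for 23 of the 26 members, all but Timm21, Tomm40l and Tomm7. The sequences belong to members that fell (Timm8b, Timm13, Tomm5, Tomm22) and to both that rose (Timm29, Tomm70a). They run 5′ to 3′ towards the start, and capitals mark every match to a searched motif.
Timm8b (chr9:50603651-50603900, plus strand): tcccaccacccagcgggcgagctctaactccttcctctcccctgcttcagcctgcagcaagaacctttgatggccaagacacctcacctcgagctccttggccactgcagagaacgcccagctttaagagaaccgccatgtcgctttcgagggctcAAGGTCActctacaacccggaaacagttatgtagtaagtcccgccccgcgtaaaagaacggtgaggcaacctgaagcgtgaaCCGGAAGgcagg
Timm13 (chr10:80900970-80901219, minus strand): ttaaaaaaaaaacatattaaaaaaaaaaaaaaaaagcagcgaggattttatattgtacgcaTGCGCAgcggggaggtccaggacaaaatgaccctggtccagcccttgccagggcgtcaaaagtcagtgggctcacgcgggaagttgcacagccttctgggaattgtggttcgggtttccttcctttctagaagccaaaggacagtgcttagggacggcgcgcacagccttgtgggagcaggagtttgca
Tomm5 (chr4:45108114-45108363, minus strand): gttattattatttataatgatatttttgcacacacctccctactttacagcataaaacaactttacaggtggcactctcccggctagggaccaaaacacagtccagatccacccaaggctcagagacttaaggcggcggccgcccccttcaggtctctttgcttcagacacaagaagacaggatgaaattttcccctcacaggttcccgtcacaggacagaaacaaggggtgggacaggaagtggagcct
Tomm22 (chr15:79670618-79670867, plus strand): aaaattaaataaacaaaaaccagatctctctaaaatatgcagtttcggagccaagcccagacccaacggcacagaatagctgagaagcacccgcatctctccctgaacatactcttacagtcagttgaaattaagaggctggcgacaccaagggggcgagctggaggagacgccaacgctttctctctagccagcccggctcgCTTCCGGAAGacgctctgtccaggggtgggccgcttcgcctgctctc
Timm29 (chr9:21592472-21592721, plus strand): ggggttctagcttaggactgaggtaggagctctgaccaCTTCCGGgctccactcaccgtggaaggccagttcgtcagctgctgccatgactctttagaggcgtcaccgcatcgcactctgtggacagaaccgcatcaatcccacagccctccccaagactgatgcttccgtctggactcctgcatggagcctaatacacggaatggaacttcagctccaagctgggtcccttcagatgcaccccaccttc
Tomm70a (chr16:57121464-57121713, plus strand): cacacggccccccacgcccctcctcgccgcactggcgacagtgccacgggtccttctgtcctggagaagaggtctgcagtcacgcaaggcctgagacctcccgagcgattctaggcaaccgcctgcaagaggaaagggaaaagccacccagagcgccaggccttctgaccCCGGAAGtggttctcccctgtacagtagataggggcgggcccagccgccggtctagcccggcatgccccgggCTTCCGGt

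The letters searched on both strands were TGCGCA (NRF1 core), CCGGAAG (ETS, as for GABP), AAGATGG (YY1), AAGGTCA (an ERR binding element), CACGTG (E-box) and CCAAT. The ETS letters stood upstream of 9 of the 23 member genes, namely Timm8b, Timm10, Tomm22, Timm29, Tomm70a, Timm23, Timmdc1, Tomm34 and Timm8a2. Of 32851 upstream windows of this length in the RefSeq table, 6.91% held them. Among members with a window, 3 of the 9 that fell and both that rose held the ETS letters. In Tomm22 the matches at -47 and -44 overlap on opposite strands, and Tomm70a held matches at -80 and -8, counted from the start. Timm8b held 1 at -12, plus the ERR letters at -94. The NRF1 core stood ahead of Timm13 (at -189), Timm23 and Tomm20, that is 3 members, against 6.43% of all windows. E-box letters occurred in 4 members (6.02% of all windows), CCAAT in 7 (33.8%), YY1 in 1 (4.49%) and ERR in 1 (4.08%). The Tomm5 window held none of the 6. A match of letters is a description of the window and says nothing of a factor's binding.

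The outer membrane TOM complex was represented by 9 genes, of which 7 were tested. Among these 4 fell, 1 rose and 2 did not pass, with a median log2 fold change of -0.86. Tomm7 (chromosome 5, 23838944 to 23844161 in mm10) encodes a small subunit that regulates assembly of the complex and helps hold the kinase PINK1 at the outer membrane. Its level in CPM, counts scaled to a common library size by TMM, was 15.1, 18.6 and 28.7 in anti-IgG libraries 1 to 3 and 3.59, 4.39 and 4.42 in anti-PD-1 libraries 1 to 3. The groups did not overlap, and each anti-PD-1 library lay far below the lowest anti-IgG library. The log2 fold change was -2.33 (SE 0.27, edgeR adjusted p = 0.0021), a 5.03-fold lower level and the largest change of any member.

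Tomm5, another small subunit packed beside the channel (chromosome 4, 45105208 to 45108114), stood at 67.2, 69.5 and 96.5 CPM with anti-IgG and at 21.4, 36.7 and 29.0 CPM with anti-PD-1. Again no values overlapped, with anti-IgG library 3 highest and anti-PD-1 library 1 lowest. It fell by 1.42 on the log2 scale (SE 0.23, edgeR adjusted p = 0.0057). Tomm22 encodes the central receptor that joins the channels of the complex (chromosome 15, 79670861 to 79673400). Its values were close together within each group, 75.3, 87.8 and 76.2 CPM with anti-IgG and 41.5, 43.9 and 44.3 CPM with anti-PD-1. The log2 fold change was -0.88 (SE 0.16, edgeR adjusted p = 0.0080).

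Tomm40 encodes the beta-barrel channel itself (chromosome 7, 19701313 to 19715438). It measured 45.5, 43.7 and 64.4 CPM with anti-IgG and 25.1, 30.7 and 29.2 CPM with anti-PD-1, without overlap. The log2 fold change was -0.855 (SE 0.20, edgeR adjusted p = 0.0154). The call of Tomm40 ended when anti-PD-1 library 1 was left out (adjusted p = 0.0696), whereas Tomm7, Tomm5 and Tomm22 passed without any 1 library. Tomm40l, a related channel gene with lower expression, did not pass, with a log2 fold change of 0.05 (SE 0.34). It is uncertain, since 64.3% of its exon bases lie opposite exons of Nr1i3 and the strand setting of the counting is not stated.

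The receptors of the complex differed among themselves. Tomm70a, the receptor for carrier precursors delivered by cytosolic HSP70 and HSP90 (chromosome 16, 57121703 to 57156705), stood at 99.4, 78.0 and 88.6 CPM with anti-IgG and at 130.1, 145.7 and 139.5 CPM with anti-PD-1. All 3 treated libraries lay above all 3 controls. The gene rose by 0.64 on the log2 scale (SE 0.18, edgeR adjusted p = 0.0274), a 1.56-fold difference. That call held without anti-IgG library 1 and ended without any 1 of the other 5 libraries (adjusted p from 0.0579 to 0.128). Tomm20, the main presequence receptor, did not pass and its groups overlapped. Its level was 92.0, 71.5 and 76.6 CPM with anti-IgG and 77.3, 78.9 and 83.3 CPM with anti-PD-1. The log2 fold change was -0.0043 (SE 0.17), with 2 SE to either side reaching from -0.35 to 0.34, and its sign turned under other scalings. Tomm6, a further small subunit, had 3 reads in anti-IgG library 3 and 0 in the other 5 libraries. Exons of the same-strand gene Gm21981 share 75.95% of its exon bases, which makes its count uncertain. Tomm20l, a testis relative of Tomm20, had 3 reads in anti-PD-1 library 1 and 0 elsewhere. Both were below the test, and a count of 0 allows up to 3 reads, or 0.142 to 0.166 CPM depending on the library (counting error only).

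The small Tim chaperones, soluble proteins of the intermembrane space, gave 5 falls, 0 rises and 1 gene that did not pass among 6 tested of 7. Their median log2 fold change was -1.34, and in all 6 the groups did not overlap. Timm13 (chromosome 10, 80899450 to 80900969) partners the TIMM8 proteins in the hexamer that carries beta-barrel and certain inner membrane precursors. It stood at 17.9, 20.8 and 40.1 CPM with anti-IgG and at 3.94, 11.9 and 7.45 CPM with anti-PD-1. The spread was wide in both groups, with anti-IgG library 3 and anti-PD-1 library 1 at the ends. It fell by 1.76 on the log2 scale (SE 0.42, edgeR adjusted p = 0.0222), and the call held without control library 1 or treated library 2 and ended without any 1 of the other 4 (adjusted p from 0.0554 to 0.0689).

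The partner Timm8b (chromosome 9, 50603910 to 50605320) stood at 45.3, 60.3 and 67.8 CPM with anti-IgG and at 13.6, 26.8 and 24.0 CPM with anti-PD-1. Its log2 fold change was -1.43 (SE 0.26, edgeR adjusted p = 0.0079). Opposite-strand exons of Nkapd1 cover 15.6% of its exon bases. Timm8a1, whose human counterpart is mutated in deafness-dystonia syndrome, had 10.1, 10.3 and 15.0 CPM with anti-IgG and 6.43, 7.13 and 8.26 CPM with anti-PD-1. The groups did not overlap, but its log2 fold change of -0.70 (SE 0.24) did not pass (edgeR adjusted p = 0.0586). Timm8a2 had 2 reads in anti-PD-1 library 3 and 0 in the other 5 libraries.

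TIMM9 and TIMM10 form the other hexamer, which takes carrier proteins to TIM22. Timm10 (chromosome 2, 84826997 to 84830213) measured 20.5, 31.4 and 34.1 CPM with anti-IgG and 7.83, 14.1 and 10.9 CPM with anti-PD-1. It fell by 1.39 on the log2 scale (SE 0.26, edgeR adjusted p = 0.0085). Timm9 (chromosome 12, 71123173 to 71136684) measured 16.3, 21.1 and 16.7 CPM with anti-IgG and 7.68, 8.04 and 8.50 CPM with anti-PD-1. Its log2 fold change was -1.16 (SE 0.20, edgeR adjusted p = 0.0069), so the partners of this hexamer were lower in every treated library than in any control. Timm10b encodes the small Tim that docks on the TIM22 complex (chromosome 7, 105640056 to 105643637). It was the least counted tested member of all, with 79, 94 and 115 reads (4.05, 5.26 and 5.76 CPM) with anti-IgG and 25, 39 and 59 reads (1.25, 2.09 and 2.83 CPM) with anti-PD-1. Its log2 fold change was -1.28 (SE 0.36, edgeR adjusted p = 0.0303), and it shares 22.1% of its exon bases with other genes. Timm8b, Timm10 and Timm9 passed without any 1 library. Timm10b passed without library 1 of the controls or library 3 of the treated group and did not pass without any 1 of the other 4 (adjusted p from 0.0597 to 0.106).

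Of the 8 inner membrane genes of TIM23 and TIM22, all tested, 1 fell, 1 rose and 6 did not pass, with a median log2 fold change of -0.35. Timm22, the channel of the carrier translocase (chromosome 11, 76406952 to 76416292), stood at 23.7, 24.9 and 31.6 CPM with anti-IgG and at 17.1, 18.3 and 18.02 CPM with anti-PD-1. It fell by 0.59 on the log2 scale (SE 0.19, edgeR adjusted p = 0.0441). That call was near the threshold and held without anti-IgG library 1 and in no other case with a library left out (adjusted p from 0.0851 to 0.140). Timm29, which links the TIM22 complex to TOM (chromosome 9, 21592722 to 21595970), stood at 56.5, 31.2 and 49.5 CPM with anti-IgG and at 82.1, 83.5 and 68.9 CPM with anti-PD-1. All treated libraries were above all controls, of which library 2 was lowest. The log2 fold change was 0.77 (SE 0.22, edgeR adjusted p = 0.0336), and this call too held only without anti-IgG library 1 among the 6 libraries left out in turn (otherwise adjusted p from 0.0529 to 0.130).

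Among the TIM23 subunits 0 of 6 passed in edgeR, DESeq2 or limma-voom, and 2 (Timm44 and Timm17b) had an unadjusted edgeR p under 0.05. Timm23, the core of the presequence translocase, measured 41.2, 34.3 and 72.8 CPM with anti-IgG and 45.7, 63.4 and 47.0 CPM with anti-PD-1. Its groups overlapped fully, with anti-IgG libraries at both ends, and the log2 fold change was 0.07 (SE 0.27, edgeR adjusted p = 0.871, 2 SE to either side -0.47 to 0.61). Under upper quartile scaling the sign of Timm23 turned, as did that of Tomm40l. In the fits with a length trend removed, described below, Timm23 stood at 0.58 and 0.73 and did not pass. Timm17a and Timm17b, the alternative partners of TIMM23, had log2 fold changes of -0.28 and -0.49. Timm50, the receptor that passes presequences to the channel, had -0.42, and Timm44, which tethers the matrix import motor, -0.49. Timm21, a subunit that contacts TOM and the respiratory chain, had -0.26. In Timm44 and Timm17b the groups did not overlap, although the test was not passed (edgeR adjusted p = 0.0808 and 0.107).

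The other 2 genes with these symbols are not translocase subunits, and neither passed. Timmdc1, an assembly factor of respiratory complex I, stood at 27.0, 26.8 and 38.4 CPM with anti-IgG and at 25.0, 29.0 and 27.1 CPM with anti-PD-1 (log2 fold change -0.19, SE 0.19). Tomm34, a cytosolic co-chaperone of HSP70 and HSP90, stood at 19.9, 22.9 and 18.9 CPM with anti-IgG and at 16.4, 14.0 and 13.2 CPM with anti-PD-1. Its groups did not overlap, and the log2 fold change was -0.50 (SE 0.19, edgeR adjusted p = 0.0814).

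**Figure D2:**
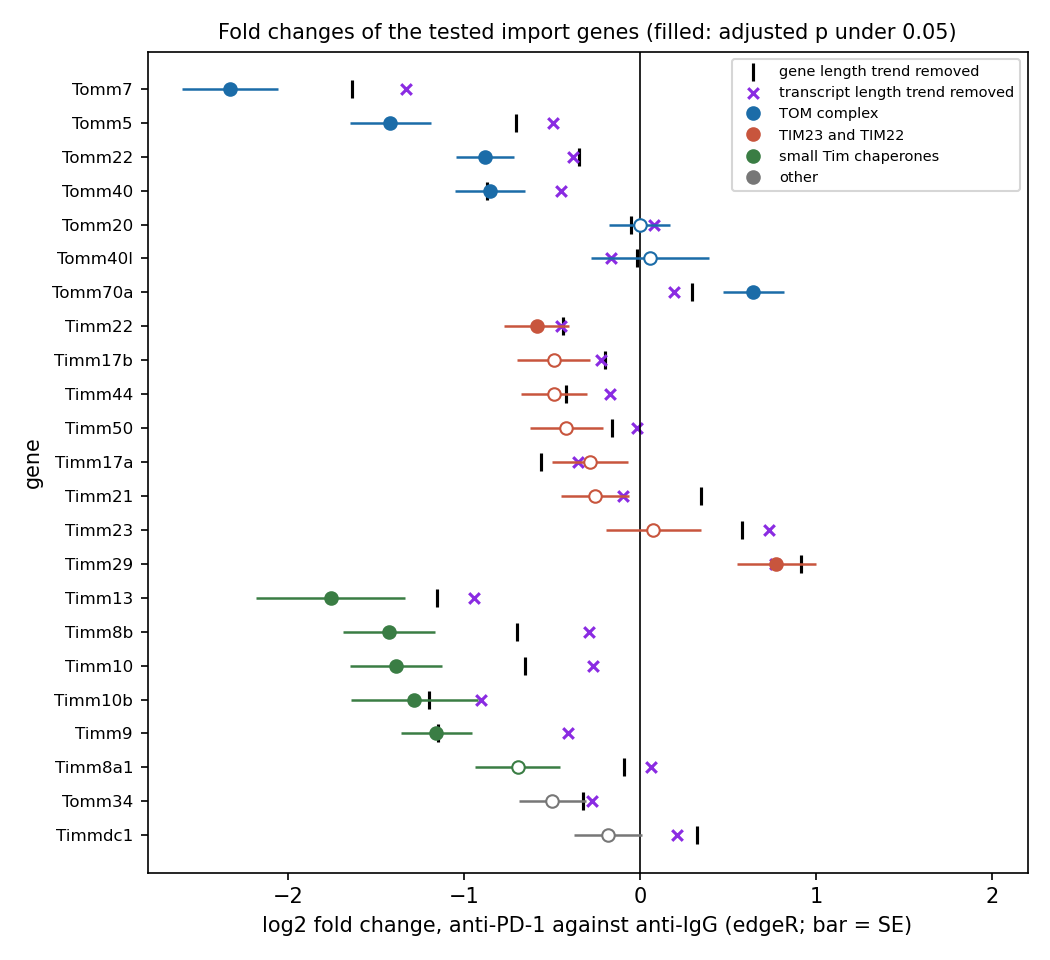
Log2 fold change (anti-PD-1 against anti-IgG) of the 23 tested import genes, with the SE as a bar; filled circles passed edgeR's test. Black ticks and purple crosses give the value after a length trend was removed from each library; with the transcript length trend removed Tomm7 lies at -1.33 and Timm8b at -0.29.

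Gene length moved with these changes across the whole table, so it is given beside them. Over all 14807 tested genes the log2 fold change had a Spearman correlation of 0.49 with the authors' gene length, and over the 23 tested members it had one of 0.57 (genes are not independent, and no test was made). With coding and longest transcript length the members gave 0.71 and 0.61. The small Tim chaperone genes had a median length of 1396 bp, the TIM23 and TIM22 genes 2927 bp, the TOM genes 4513 bp and all tested genes 4163 bp. By this length the TOM median lay above that of all tested genes. Coding and longest transcript lengths gave TOM medians of 435 and 1646 bp, against 1389 and 3228 bp over all tested genes where known. For the small Tim genes these were 277.5 and 1323 bp, and for the TIM23 and TIM22 genes 679.5 and 2399.5 bp. The median log2 fold change of the TOM genes was -0.86. Split at 1500 bp, a length chosen after the data were seen, the members up to it gave 5 falls of 7 and a median of -1.42 on the log2 scale. The 7 include Timm21, which did not pass, with 1315 bp in the authors' table but 3722 bp of GENCODE M21 exons. All tested genes up to that length gave falls in 31.6%, with a median of -0.77. Above it 5 of 16 members fell, with a median of -0.46, against 8.14% of all tested genes.

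When each library's trend on gene length was removed, 7 members passed (Tomm7, Tomm5, Tomm40, Timm8b, Timm10b, Timm9 and Timm29) and the share of all tested genes was 10.3%. In that fit Tomm7 was at -1.64 and Timm29 at 0.91. Timm23 did not pass and was at 0.58. When the trend on coding and 3' untranslated length of a gene's longest transcript was removed, 1 member passed, against 5.14% of all tested genes. This was Tomm7, at -1.33 (edgeR adjusted p = 0.0140). The medians were then -0.38 for TOM, -0.35 for the small Tim chaperones and -0.14 for the inner membrane genes. Timm13 (-0.95) and Timm10b (-0.90) had the next lowest values. Timm29 stood at 0.77, Timm23 at 0.73 (edgeR adjusted p = 0.0899) and Tomm70a at 0.19. None of these 5 genes passed. Timm9 moved from -1.16 to -0.41, with a longest transcript of 2564 bp of which only 138 bp are coding. Across the tested members the Spearman correlation of log2 fold change with coding length was 0.57 with the gene length trend removed. With the transcript length trend removed it was 0.50. The correlations with gene length were then 0.18 and 0.19. Whether length takes part in the changes of single members was not tested beyond these fits.

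**Figure D3:**
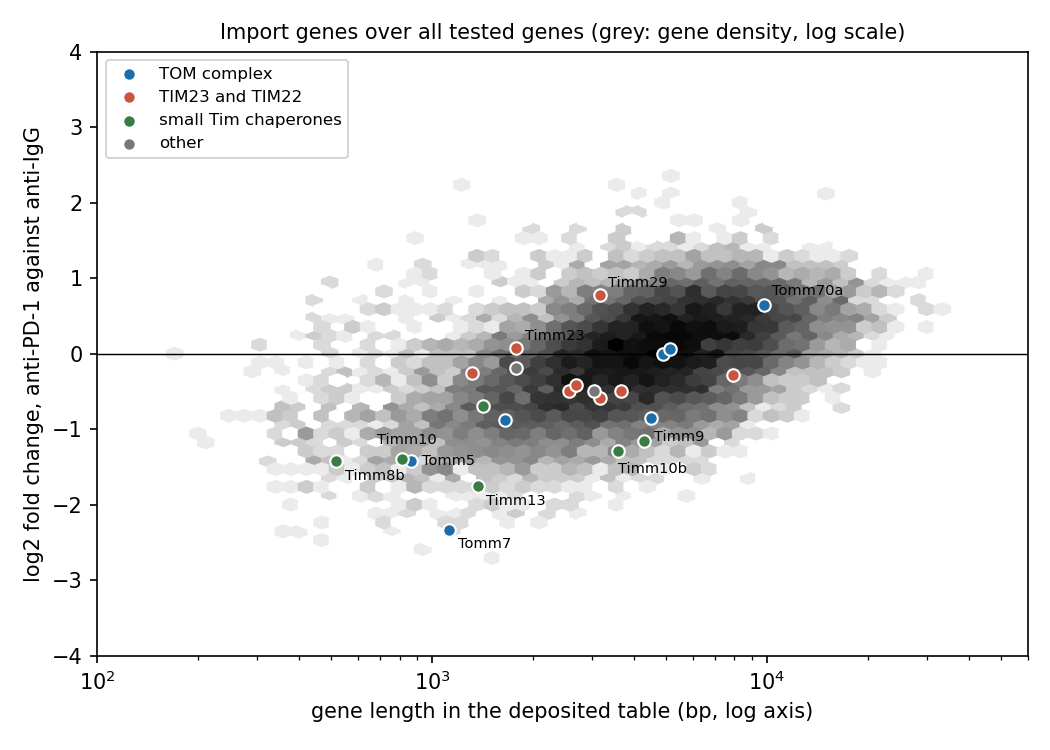
Log2 fold change (anti-PD-1 against anti-IgG) against the authors' gene length (log axis) for the tested import genes (coloured points, by complex) over the density of all 14807 tested genes (grey). Short genes lie lower in the whole cloud; Tomm7 lies at -2.33 and Timm29 at 0.77.

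Levels of different genes can be compared per length, on the FPKM scale of the authors' table. Timm8b was the highest member with 103.8 ± 20.3 FPKM in the anti-IgG group and 39.1 ± 12.5 in the anti-PD-1 group (SD, n = 3 each). Tomm5 was next with 83.3 ± 17.7 and 31.6 ± 7.84, and Tomm22 had 45.0 ± 3.48 and 24.8 ± 0.888. Timm23 had 25.8 ± 10.8 and 27.5 ± 4.75 FPKM, Tomm40 10.6 ± 2.40 and 5.93 ± 0.558, and Timm22 7.83 ± 1.26 and 5.29 ± 0.156. Over all 6 libraries the tested members ranged from 0.924 FPKM (Timm10b) to 71.5 FPKM (Timm8b) on average. Summed FPKM of the small Tim genes was 129.1, 169.1 and 203.5 with anti-IgG and 43.2, 79.1 and 70.7 with anti-PD-1, without overlap and mostly from Timm8b. The TOM sum, led by Tomm5, was 166.2, 168.3 and 209.2 against 85.5, 104.0 and 98.9, again without overlap. The sum of the TIM23 and TIM22 genes was 113.5, 94.9 and 139.7 against 101.3, 123.5 and 105.4, and the groups overlapped. That sum takes Timm21 at the authors' length of 1315 bp, against 3722 bp of GENCODE M21 exons.

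The classes were also followed library by library, as the median deviation of a class's tested genes from their own 6-library mean on the log2 CPM scale. Small Tim genes lay at 0.35, 0.71 and 0.86 in the anti-IgG libraries and at -1.09, -0.35 and -0.49 in the anti-PD-1 libraries. TOM genes lay at 0.27, 0.21 and 0.49 and at -0.49, -0.29 and -0.37. Neither class overlapped between groups. Inner membrane genes lay at 0.04, 0.02 and 0.52 and at -0.29, 0.02 and -0.17, with anti-PD-1 library 2 among the controls. The difference between classes was not tested. Anti-PD-1 library 1 was the lowest of the 6 libraries in all 10 members that fell, and anti-IgG library 3 the highest in 8 of them. Over the 23 tested members these libraries were lowest and highest in 16 each. A member that fell without overlap has its lowest library in the treated group and its highest in the controls by definition. The same shares over all tested genes were not counted. Without anti-PD-1 library 1, 6 members passed, all of them falls (Tomm7, Tomm5, Tomm22, Timm8b, Timm10 and Timm9). Without anti-IgG library 3 or 2 the same 6 and Tomm40 passed, and without anti-IgG library 1 the count was 13.

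**Figure D4:**
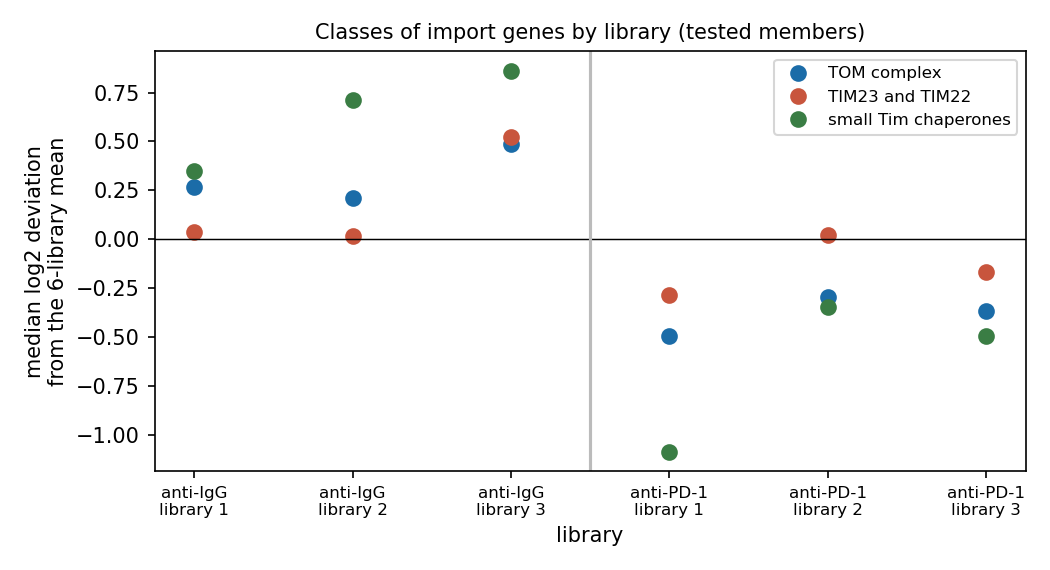
Median log2 deviation of the tested genes of each import class from their own mean over the 6 libraries (y axis), by library (x axis). Small Tim genes span from 0.86 in anti-IgG library 3 to -1.09 in anti-PD-1 library 1; inner membrane genes of the 2 groups mix.

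Paralogues that can fill the same place were set against each other as ratios of FPKM in each library, in 3 pairs. The ratio of Tomm40 to Tomm40l was 5.81, 12.5 and 6.56 with anti-IgG and 2.94, 4.29 and 4.64 with anti-PD-1, without overlap. On the log2 scale it was lower with anti-PD-1 by 1.01, a value of -1.01 (exact 2-sided permutation p = 0.1, the smallest that 3 against 3 libraries allow, 0.15 adjusted over the 3 pairs). Timm8a1 to Timm8b gave 0.0812, 0.0622 and 0.0808 with anti-IgG and 0.173, 0.0968 and 0.125 with anti-PD-1. Here too there was no overlap, and the log2 difference was 0.79 (exact permutation p = 0.1, adjusted 0.15). Timm17a to Timm17b gave 1.52, 1.33 and 1.57 against 1.55, 1.84 and 1.74, with overlapping groups and a log2 difference of 0.21 (exact permutation p = 0.2, adjusted 0.2). This design cannot reach a p under 0.05 for a single ratio. The length trend was not removed from these ratios. With the transcript length trend removed the log2 fold changes were -0.45 for Tomm40 and -0.17 for Tomm40l. They were 0.061 for Timm8a1 and -0.29 for Timm8b, and -0.35 for Timm17a and -0.23 for Timm17b. Reads of members can also fall on copies elsewhere: 30 other loci of the table are annotated with the same proteins, 4 of them with at least 100 reads, such as the Tomm20-like Gm14494 with 1029 reads over the 6 libraries.

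Partner genes of the pathway that carry other names numbered 33, all tested: 2 rose, 7 fell and 24 did not pass, with a median log2 fold change of -0.30. Of all tested genes 21.1% changed, 10.8% falling and 10.3% rising, with a median of -0.03. Most of the falls were among the import motor and TIM23 partners, where 4 of 7 fell and 0 rose. Romo1, a small inner membrane protein bound to TIM23, stood at 20.4, 26.1 and 38.1 CPM with anti-IgG and at 4.64, 6.91 and 8.22 CPM with anti-PD-1. Its log2 fold change was -2.10 (SE 0.28, edgeR adjusted p = 0.0036), against -2.33 for Tomm7. Pam16 and Dnajc19, the J-like and J proteins that control the motor's HSP70, fell by 1.25 and 1.04 on the log2 scale, and Dnajc15, a J protein related to Dnajc19, fell by 0.88. Human DNAJC19 mutations cause a cardiomyopathy with ataxia. The motor's HSP70 itself, Hspa9, did not pass (0.23), nor did its exchange factors Grpel1 (-0.39) and Grpel2 (0.03).

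In the outer membrane sorting complex 1 of 4 genes fell, Mtx1 with a log2 fold change of -1.10, while Mtx2 stood at -0.32 and did not pass. Of 4 inner membrane insertion genes 1 fell, Immp2l, a peptidase subunit, at -1.10, and Immp1l (-0.35) did not pass. Among 6 matrix processing and folding genes 1 fell and 1 rose. Hspe1, the lid of the HSP60 folding chamber, was at -0.93, and at 0.19 (edgeR adjusted p = 0.564) with the transcript length trend removed. The chamber gene Hspd1 was at -0.13 and did not pass. Xpnpep3, a peptidase that trims imported proteins, rose by 0.96. Of 6 cytosolic and extraction factors 1 rose, Atad1, the ATPase that pulls misplaced proteins from the outer membrane, by 0.85, and Ube4b (0.50) did not pass. The 3 oxidative folding genes of the intermembrane space gave 0 calls, with Gfer at -0.32 and Aifm1 at -0.28, as did the 3 outer membrane insertion genes, with Msto1 at -0.30 and Mtch2 at -0.26. In these 6 genes edgeR gave 0 unadjusted p under 0.05 and DESeq2 gave 0 calls. With the transcript length trend removed 3 of the 33 partner genes passed, Romo1 (-0.85), Dnajc15 (-0.86) and Dnajc19 (-0.76), against 5.14% of all tested genes. The median over all partner genes was then 0.02. Romo1, Pam16, Dnajc19 and Hspe1 passed without any 1 library. The other calls ended without control library 2 or treated library 1, and those of Xpnpep3, Atad1, Mtx1 and Immp2l also without control library 3; Mtx1 and Immp2l did not pass without treated library 3 either. Leaving out 1 library at a time left 4 to 10 partner genes past the threshold, fewest without control library 2 or treated library 1.

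Genes read as a reference for mitochondrial content were also counted. Of 15 such genes, among them Cs, Tfam and the porins, 1 fell, 0 rose and 14 did not pass, with a median log2 fold change of -0.08. The gene that fell was Slc25a4, the heart form of the ADP/ATP carrier and a client of the TIM22 route, at 2961.7 ± 857.0 CPM with anti-IgG and 1422.9 ± 249.5 CPM with anti-PD-1 (log2 fold change -1.06, SE 0.27, edgeR adjusted p = 0.0215). Its call ended without control library 3 or treated library 1 or 3 (adjusted p from 0.0699 to 0.0803). Slc25a4 also did not pass with the gene length trend removed (-0.71, edgeR adjusted p = 0.0927). With the transcript length trend removed it stood at -0.72 (edgeR adjusted p = 0.104). Transcripts of the mitochondrial genome took 33.3 ± 5.24% of reads in the controls and 32.6 ± 3.43% in the treated group (exact 2-sided permutation p = 0.8). The import genes together took 0.0990, 0.0827 and 0.114% of reads in the controls and 0.0751, 0.0749 and 0.0766% in the treated libraries.

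Libraries held 18063344 to 21093163 reads. Ventricular cardiomyocyte markers were abundant. Of 10 markers 1 rose (Ryr2) and 4 fell (Tnnt2, Tnni3, Tnnc1 and Myl2), against 21.1% of all tested genes changing. Their median log2 fold change was -0.61. With the gene length trend removed 3 of the 10 passed and the median was -0.30. With the transcript length trend removed 0 passed and the median was 0.0082. The summed level of these markers was 35334 to 43745 CPM with anti-IgG and 22204 to 37703 CPM with anti-PD-1. Atrial Sln and Myl7 had 0 and 4 reads in all, and 0 of 4 tested atrial markers passed in edgeR (2 had an unadjusted p under 0.05, and DESeq2 called 1, Nppa). The atrial list still summed to 153.5 to 762.0 CPM with anti-IgG and 155.6 to 186.1 CPM with anti-PD-1. Skeletal muscle Myh4 had 0 reads. The skeletal list, which also holds Acta1 and Ckm, summed to 2954 to 6277 CPM with anti-IgG and 5889 to 7967 CPM with anti-PD-1. Of its 7 markers only 2 had enough reads to be tested, so the sum rests on these. In edgeR 0 passed, and 1 passed with the gene length trend removed. Whether the samples held skeletal muscle was not tested. Calls numbered 0 of 7 for fibroblast and 0 of 5 for erythroid markers. Endothelial markers gave 1 rise of 6, pericyte and smooth muscle markers 1 fall of 6. Leukocyte markers gave 1 rise and 1 fall of 7. The share over all tested genes was 21.1%, and lists this short cannot show that a cell type was stable. In the fibroblast and erythroid lists DESeq2 called 0 and 1 gene, Pdgfra, had an unadjusted edgeR p under 0.05. Of 5 adipocyte markers 2 were tested and 1 fell, Fabp4, which endothelial cells also express. That list summed to 451.0 to 654.9 CPM with anti-IgG and 118.3 to 251.2 CPM with anti-PD-1, while the defining marker Adipoq had 14 reads in all 6 libraries. The part of these marker changes in the results on import genes was not tested.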

How the data were processed

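Left ventricle mRNA of 6 TAC mice libraries, 3 per antibody, was analysed from 2 tables. The authors deposited raw counts of reads per gene with a gene length in bp. FeatureCounts and mm10 are named in the submitters' processing notes; the aligner, annotation and strand setting are not given in the sources used here. In addition the authors deposited FPKM, which equal the count over that length and 1 constant per library, 0.953 to 1.15 times its summed counts. The test was edgeR 4.0.16 under R 4.3.3 (filterByExpr, TMM, robust quasi-likelihood test, 2-sided, Benjamini-Hochberg over 14807 genes, threshold 0.05), after the code was tested on simulated data. The SE is the log2 fold change divided by the root of its F statistic. CPM are TMM-scaled. The gene lengths equalled the GENCODE M21 exon union in 25 of 26 members, all but Timm21. They were not used in the main test.

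Alternatives were upper quartile or RLE scaling, the count filter dropped, at least 1 CPM in 3 libraries, DESeq2 1.42.0, limma-voom and limma-trend (limma 3.58.1) on log2 FPKM with a pseudocount of 1 or 0.1, a non-robust fit, the replicate block, a fit without haemoglobin and mitochondrially encoded genes, each library left out, and each library's length trend (natural spline, 5 degrees of freedom, log2 CPM with prior count 2) removed by an offset. Both transcript lengths were known for 88.3% of tested genes. Members past the threshold and the 2 with the highest FPKM in each class are given in full; partner genes are named where they passed or had 1 of the 2 smallest unadjusted p in their list. Hspa9, Grpel1, Grpel2 and Hspd1 were named after their values were seen. The members and lists were chosen with earlier results of these data known. 3 libraries per group limit the precision, and counting limits cover counting error only.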

Additional observations from a re-analysis of the deposited data

How the results depend on the processing

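The count of genes past the threshold, 3118 in the main analysis, was 1526 with the gene length trend removed, 761 with the transcript length trend removed and 1466 with the gene length trend and the replicate block, and 532 to 3646 with 1 library left out. For the import genes, 12 in the main analysis, these were 7, 1, 8 and 6 to 13, and 3 partner genes passed with transcript length removed and 4 to 10 with 1 library left out. With the replicate block alone 3367 genes, 12 members and 9 partner genes passed. Libraries of the same number correlated at 0.12, -0.14 and 0.21, so the numbers are not taken to pair samples. The TOM median was -0.72 by limma-trend on log2(FPKM + 1), with or without the FPKM filter, -0.35 and -0.34 with gene length removed, without and with the block, -0.38 with transcript length removed, and -0.92 to -0.65 over left-out libraries. The small Tim median was -0.93 with gene length removed, with or without the block, and -0.35 with transcript length removed. The difference in the mitochondrial genome share ran from -2.40 to 2.31 percentage points over left-out libraries. Upper quartile scaling put the median of all tested genes at -0.12, and 15 members passed there, Timm44, Timm8a1 and Tomm34 added. RLE scaling and no filter each gave 11, Timm22 lost; DESeq2 gave the same 12. Among genes past the threshold in the main analysis, the sign of Hspe1 turned (0.19 with transcript length removed); the other turned signs were in genes that did not pass. Tomm20 was at 0.017 (RLE, DESeq2), 0.012 (no filter), 0.0035 (limma-voom), 0.025, 0.027 and 0.025 (FPKM), 0.0033 (replicate block), 0.019 (mitochondrial and haemoglobin genes out) and 0.075 (transcript length), and -0.10 to 0.11 over left-out libraries. Tomm40l was at -0.029 (upper quartile), -0.021 (gene length) and -0.17 (transcript length), and -0.28 to 0.37 over left-out libraries. Timm23 was at -0.017 (upper quartile), 0.58 (gene length) and 0.73 (transcript length), and -0.15 to 0.46 over left-out libraries. With gene length removed, without and with the block, Timm21 was at 0.35 and 0.38, Timmdc1 at 0.32 and 0.33, Gfer at 0.18 and 0.19 and Immp1l at 0.35 and 0.37. Both fits took Timm21 at the authors' length of 1315 bp, against 3722 bp of GENCODE M21 exons. With transcript length removed Timmdc1 was at 0.21 (-0.29 to 0.0091 over left-out libraries), Timm8a1 at 0.061, Aifm1 at 0.10, Gfer at 0.042, Immp1l at 0.48 and Msto1 at 0.0016. The cause was not tested. Tomm6, Tomm20l and Timm8a2 had 3, 3 and 2 reads in all, too few for a difference to be detectable. For Tomm6, shared exons as well as depth may limit the count, which was not tested.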
